A study of Homo sapiens with 12 samples.

Results

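The matrix metalloproteinases (MMP), the ADAM and ADAMTS proteases and their tissue inhibitors (TIMP) were followed in MDA-MB-231 cells that carried wt-GR or S134A-GR and received vehicle or TGFβ1. The genes were chosen by symbol, as a family prefix followed directly by a number, which gave 56 of the 19907 gene symbols with values. They comprised 19 MMP, 16 ADAM, 17 ADAMTS and 4 TIMP genes. MMPs, ADAMs and ADAMTSs are zinc-dependent endopeptidases. MMPs are made as inactive proenzymes and cleave collagens, other matrix proteins and growth factor binding proteins. Most ADAMs are membrane proteins, and the active ones release the ectodomains of growth factors, cytokine receptors and adhesion molecules. ADAMTSs are secreted and cleave proteoglycans, procollagens and von Willebrand factor, and TIMPs bind the active site of these enzymes. In breast cancer these proteases are studied for their part in invasion through matrix and in growth factor release. The values below are transcript levels and say nothing of proenzyme activation or of inhibitor binding.

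MDA-MB-231, a widely used cell line from a human TNBC, expresses the glucocorticoid receptor (GR, gene NR3C1). The S134A-GR line is clone #1, in which CRISPR replaced the codon for Ser134 with one for alanine in NR3C1, and the wt-GR line kept the unedited sequence. Each line is a single clone, so the S134A change and other differences between the clones cannot be told apart. The cells of both lines spent 18 h in starvation medium whose serum was 1% DCC, a charcoal-stripped serum. Vehicle (Veh) or TGFβ1 at 10 ng/mL followed over 6 h, and the 4 resulting groups have 3 replicates each. Nothing in the labels ties the replicates to separate cultures, so the p-values measure the spread between these libraries, which may be technical in part. Replicates 1 and 3 of wt-GR under vehicle were the least alike within a group, at a chi-square of 46.2 for each degree of freedom against 9.06 to 23.7 for the other 11 pairs, and replicate 1 was the shallowest library. The cause was not tested. Values are normalized counts, that is, counts per gene divided by a size factor for each library. The counts recovered from them, called reads below, totalled 56362036 to 129832227 per library. No source used here states whether a count is a read pair or a single end of one. More symbols had 2 counts than 1 in each library (709 to 843 against 354 to 409), the pattern expected where both ends of a pair are counted, so a pair may stand as 2 reads. A level of 3 reads, taken as the limit of detection, corresponded to 2.15 to 4.89 normalized counts, which covers counting error alone and may rest on fewer than 3 pairs.

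The libraries were checked against the labels first. NR3C1 was, under vehicle, at 12729, 12139 and 10444 normalized counts with wt-GR against 8516, 8971 and 8959 with S134A-GR, and under TGFβ1 at 10486, 11326 and 10512 with wt-GR against 9398, 8336 and 8341 with S134A-GR. The log2 fold change of S134A-GR over wt-GR under vehicle was −0.41 (SE 0.0665, adjusted p = 0.00012) by limma. A substitution of single bases does not show in counts per gene, so the level of NR3C1 does not test the genotype label. VIM (468823 normalized counts on average), CD44 (51106) and EGFR (17928) were abundant, as the mesenchymal-like label of the line has it. ESR1 (3.26) and CDH1 (6.17) lay near the limit of detection, while EPCAM and ERBB2 (9059) were detected in all 12 libraries. EPCAM differed between the lines, at 965, 1016 and 1093 with wt-GR against 363, 436 and 336 with S134A-GR under vehicle, a log2 fold change of −1.44 (SE 0.104, adjusted p = 5.66e-08), and −1.58 under TGFβ1. SMAD7, a TGFβ1 target, rose by 1.19 on the log2 scale in wt-GR cells and by 1.32 in S134A-GR cells, and PMEPA1, another target, rose by 2.90 and 2.18, each with an adjusted p under 0.05.

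Markers of other cell types were read in the same libraries. The leukocyte markers PTPRC and CD14 summed to 37.5, 29.6 and 35.8 with wt-GR against 10.4, 8.11 and 16.9 with S134A-GR under vehicle, and 13.3, 11.7 and 23.4 against 11.4, 14.2 and 5.72 under TGFβ1. CD14 was the more abundant of the pair on average, and CD3E had no row among the symbols analysed here. The sums of the fibroblast markers PDGFRA, DCN, LUM and COL3A1 were 19.6, 27.5 and 20 with wt-GR against 8.48, 10.1 and 16 with S134A-GR under vehicle, and 35.5, 19.8 and 35.6 against 7.61, 36.5 and 17.9 under TGFβ1. PDGFRA was the most abundant of them on average, and LUM was at 0 in all 6 S134A-GR libraries. LUM was also at 0 in wt-GR TGFβ1 replicates 2 and 3, and reached 3 reads in only 2 of the 12 libraries. COL3A1 went the other way under TGFβ1, at 0, 0.732 and 1.02 with wt-GR against 3.8, 17.2 and 12.2 with S134A-GR. These wt-GR values lie under the limit of detection. The endothelial markers PECAM1, VWF and CDH5, led by PECAM1, had sums of 1885, 2032 and 1906 with wt-GR against 1447, 1572 and 1554 with S134A-GR under vehicle, and 1468, 1476 and 1511 against 1098, 1110 and 928 under TGFβ1. CDH5 itself was at 173, 165 and 222 with wt-GR against 13.2, 16.2 and 27.6 with S134A-GR under vehicle. Under TGFβ1 it was at 228, 182 and 234 with wt-GR against 37.1, 28.35 and 20.7 with S134A-GR. CDH5 thus did not fall with TGFβ1 as the sums did. Its log2 changes were 0.20 in wt-GR and 0.60 in S134A-GR cells, not called by limma (adjusted p = 0.671 and 0.156). The endothelial sums were thus lower with S134A-GR and lower under TGFβ1, the leukocyte sums were lower with S134A-GR under vehicle, where CD14 was lower and PTPRC was not, and overlapped under TGFβ1, and the part of these markers in the results that follow was not tested. In bulk RNA, fewer cells with a transcript and less transcript per cell cannot be told apart.

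Of the 56 genes, 38 had a mean of at least 20 normalized counts over the 12 libraries and entered the fold changes, 11 MMP, 10 ADAM, 13 ADAMTS and all 4 TIMP genes. Just inside this limit were ADAM21 (26.5) and ADAMTS20 (31.2), and just outside were MMP10 (17) and MMP13 (14.1). ADAM21 was the only gene of the 38 with a group mean under 20, at 19.5 ± 3.5 (SD, n = 3) in S134A-GR cells under vehicle. The other 18 genes have levels and no fold change. Among them, MMP10, a stromelysin, ranged from 8.02 to 27.1 over the libraries. MMP13, a collagenase, was at 35.9, 19 and 12.6 in wt-GR and 5.66, 4.05 and 5.34 in S134A-GR cells under vehicle. MMP11, or stromelysin-3, was uneven between replicates, at 0, 47.6 and 8.42 in wt-GR cells under vehicle. ADAMTS2, a procollagen N-proteinase, was at 3.26, 2.11 and 4.21 under vehicle and 15.6, 10.2 and 12.2 under TGFβ1 in wt-GR cells, and at 1.89, 2.03 and 5.34 under vehicle against 11.4, 17.2 and 9.3 under TGFβ1 in S134A-GR cells. ADAM28 and ADAM23 averaged 8.98 and 5.89. ADAM32, ADAMTS4, ADAMTS19, ADAM20, MMP8, ADAMTS8, MMP21, ADAM29, MMP7, ADAM33, MMP28 and MMP20 had means from 0.176 to 3.45, and of these MMP28 and MMP20 had fewer than 3 reads in each library. ADAMTS5, MMP12 and MMP26 had no row among the symbols analysed here.

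Levels were compared between genes per kb of exon (the union of exons in GENCODE release 44), since longer transcripts collect more reads. MMP14, or MT1-MMP, a membrane-anchored collagenase that also activates proMMP2, led with 21769 normalized counts per kb in wt-GR cells under vehicle and 32078 in S134A-GR cells. It made up 95.9% ± 0.0827 (SD, n = 3) of the summed MMP level per kb with wt-GR against 96.5% ± 0.0715 with S134A-GR under vehicle. Under vehicle, MMP1 came next with wt-GR, at 232 per kb against 208 for MMP15, and MMP15 came next with S134A-GR, at 453 against 71.2 for MMP1. The order of the soluble MMPs with a mean of at least 20 differed between the lines. Under vehicle they had, with wt-GR, 232 per kb for MMP1, 153 for MMP19, 54.4 for MMP9, 40.9 for MMP3 and 9.46 for MMP2, and with S134A-GR 207 for MMP19, 71.2 for MMP1, 63.4 for MMP3, 18.3 for MMP2 and 10.2 for MMP9. Over the 12 libraries, TIMP1 followed MMP14 with 18604 per kb, then TIMP2 with 9146. Under vehicle TIMP1 was at 14783 with wt-GR and 18933 with S134A-GR, and TIMP2 at 8513 and 9319. ADAM15 (5638), ADAM19 (2529), ADAM9 (1718), ADAM10 (1328) and ADAM8 (1070) were the most abundant ADAMs per kb over the 12 libraries. Under vehicle ADAM9 stood above ADAM19 in both lines, at 1892 against 1550 with wt-GR and 1527 against 1302 with S134A-GR. The leading ADAMTS gene differed between the lines in both treatments. Under vehicle ADAMTS15 led with wt-GR, at 949 per kb, and ADAMTS6 led with S134A-GR, at 431 against 292 for ADAMTS15. Under TGFβ1 ADAMTS15 led with wt-GR, at 563, and ADAMTS6 led with S134A-GR, at 737 against 155 for ADAMTS15. The zinc-binding motif of active metalloproteases was searched in the protein translated from each ADAM's canonical GENCODE transcript. It was found in 11 of the 16 ADAMs and was missing from ADAM11, ADAM22, ADAM23, ADAM29 and ADAM32, which are known as inactive members. The same search also missed it in ADAMTS1, ADAMTS4, ADAMTS8, ADAMTS9 and ADAMTS15, of the group that cleaves proteoglycans. Its absence by this pattern alone therefore does not tell an inactive protease.

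**Figure D1:**
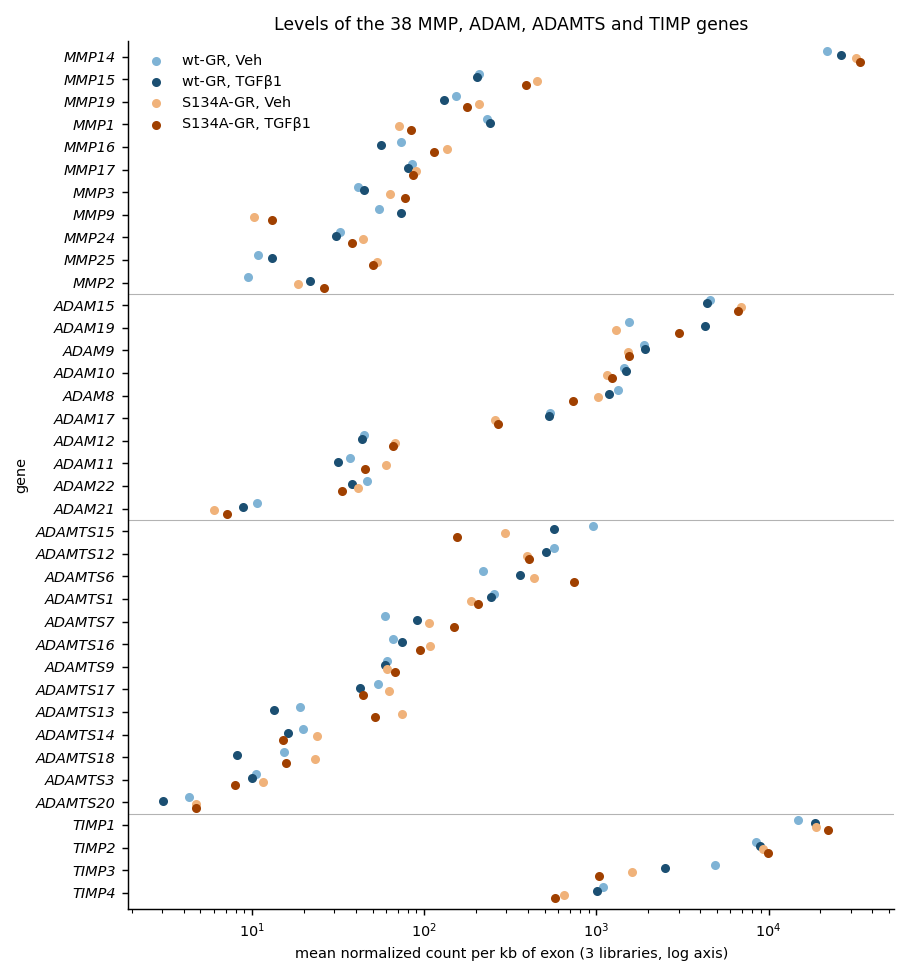
Mean normalized count per kb of exon (log axis) of the 38 genes with a mean of at least 20, by family, with a point for each of the 4 groups (n = 3 libraries each). MMP14 and TIMP1 lie at the right, MMP9 and MMP1 lie further left in S134A-GR cells, and MMP25 and ADAMTS13 lie further right in them.

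The first question was how the family differed between the lines without TGFβ1. Under vehicle, MMP9, MMP1, ADAMTS15, TIMP3 and ADAM17 had the largest decreases in S134A-GR cells, and MMP25, ADAMTS13, MMP15, ADAMTS6 and MMP2 the largest increases. The tool limma compared the groups on the log2 scale after 1 was added to each normalized count, with p-values adjusted over the 18579 genes that had at least 10 reads in all, and genes with an FDR under 0.05 were called. This scale understates the change of low genes. Of the 38 genes, 18 were higher and 13 lower, where 30.0% of all 14425 genes with a mean of at least 20 were higher and 31.8% lower. Differences of at least 1 on the log2 scale were called for 8 of the 38, against 7.80% of the 14425 genes. The median log2 fold change was 0.18 for the 38 genes and 0.00 for the 14425. By family, 8 of 11 MMP genes were higher and 2 lower, 3 of 10 ADAM genes were higher and 6 lower, 5 of 13 ADAMTS genes were higher and 3 lower, and 2 of 4 TIMP genes were higher and 2 lower.

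The same comparison under TGFβ1 used the other 6 libraries. There 16 of the 38 genes were higher in S134A-GR cells and 12 lower, against 28.0% and 30.7% of the 14425 genes, and 8 passed a log2 fold change of 1, against 6.82%. Of the 38 genes, 28 were called in both treatments, against 7322 (50.8%) of the 14425 genes. All 28 kept 1 direction, as did 7312 of the 7322. ADAM21, MMP2 and MMP24 were called under vehicle and missed the threshold under TGFβ1, and limma did not call the change of that difference with TGFβ1 for any of them (adjusted p = 0.671, 0.371 and 0.881). The MMP24 call (log2 fold change 0.45, adjusted p = 0.0244 under vehicle) was lost without wt-GR vehicle replicate 2 (adjusted p = 0.114), S134A-GR vehicle replicate 2 (0.0665) or S134A-GR vehicle replicate 3 (0.11), and with only the groups compared in the fit (0.0664).

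**Figure D2:**
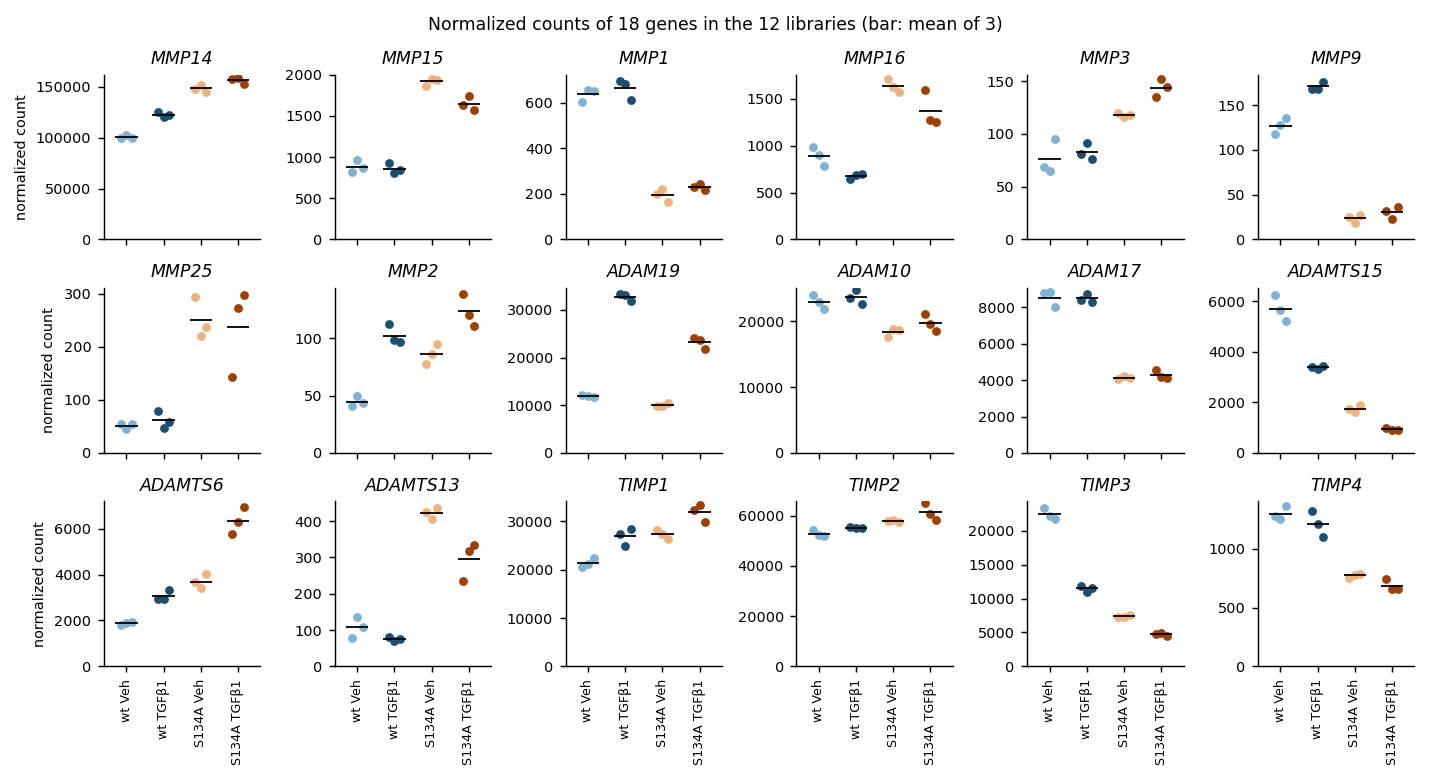
Normalized counts of 18 genes in each of the 12 libraries, a panel per gene with an axis from 0, where points are libraries and bars are means of 3. TIMP3 descends from 23349 to 4522 across the groups, and MMP9 lies between 18.2 and 36.5 in S134A-GR cells.

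Among the inhibitors, TIMP3 differed the most between the lines. TIMP3 is the TIMP that binds to the extracellular matrix, and it inhibits ADAM17 and several ADAMTSs as well as MMPs. Its normalized counts in wt-GR cells were 23349, 22160 and 21708 under vehicle and 11899, 11016 and 11585 under TGFβ1. In S134A-GR cells they were 7272, 7271 and 7603 under vehicle and 4839, 4858 and 4522 under TGFβ1. The 4 groups did not overlap, and each S134A-GR library lay under each wt-GR library. The log2 fold change of S134A-GR over wt-GR was −1.60 (SE 0.0423, adjusted p = 4.63e-12) under vehicle and −1.28 (SE 0.0423, adjusted p = 4.92e-11) under TGFβ1. TIMP4 was lower as well, with 1281, 1250 and 1367 in wt-GR and 756, 781 and 790.2 in S134A-GR cells under vehicle and 1321, 1208 and 1101 with wt-GR against 743, 658 and 655 with S134A-GR under TGFβ1. Its log2 fold change was −0.74 (SE 0.0753, adjusted p = 1.57e-06) under vehicle and −0.82 (SE 0.0753, adjusted p = 6.74e-07) under TGFβ1. Exons of SYN2 on the opposite strand cover 14.2% of the exon bases of TIMP4, and SYN2 had a mean of 32 normalized counts.

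TIMP1 and TIMP2 went the other way. TIMP1, a secreted inhibitor of most soluble MMPs, was at 20569, 21165 and 22395 in wt-GR and 28229, 27483 and 26422 in S134A-GR cells under vehicle. Under TGFβ1 it was at 27405, 24896 and 28513 with wt-GR against 32298, 33474 and 29972 with S134A-GR. S134A-GR libraries were higher than wt-GR libraries within each treatment, by 0.36 (SE 0.0536, adjusted p = 6.39e-05) on the log2 scale under vehicle and 0.25 (SE 0.0536, adjusted p = 0.00161) under TGFβ1. TIMP2, which inhibits MMPs and also takes part in proMMP2 activation by MMP14, was at 54373, 52465 and 51729 with wt-GR against 57865, 58242 and 57479 with S134A-GR under vehicle and 55310, 54997 and 54896 with wt-GR against 64946, 60822 and 58304 with S134A-GR under TGFβ1. Its differences were small, 0.13 (SE 0.0375, adjusted p = 0.00928) under vehicle and 0.15 (SE 0.0375, adjusted p = 0.0034) under TGFβ1. Per kb of exon, TIMP3 made up 16.7% ± 0.764 (SD, n = 3) of the summed TIMP level with wt-GR against 5.27% ± 0.241 with S134A-GR under vehicle, and 8.07% ± 0.172 against 3.07% ± 0.03 under TGFβ1. The share of TIMP1 was 50.5% ± 1.67 with wt-GR against 62% ± 0.818 with S134A-GR under vehicle, and 60% ± 1.61 against 65.8% ± 1.12 under TGFβ1. The summed TIMP level per kb was 29258 ± 381 in wt-GR and 30508 ± 614 in S134A-GR cells under vehicle. These shares are a description and were not tested.

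Of the gelatinases, MMP9 and MMP2, which cleave denatured collagen and basement membrane collagen, MMP9 had the largest decrease of the 38 genes under vehicle. MMP9 normalized counts were 117, 128 and 136 in wt-GR cells and 25.4, 18.2 and 27.6 in S134A-GR cells under vehicle. Under TGFβ1 they were 168, 168 and 176 with wt-GR against 31.4, 23.3 and 36.5 with S134A-GR. The lines did not overlap in either treatment, and MMP9 was 5.23-fold lower in S134A-GR cells under vehicle, a log2 fold change of −2.39 (SE 0.211, adjusted p = 4.05e-07), and −2.47 under TGFβ1 (SE 0.211, adjusted p = 3.05e-07). MMP2 was low in both lines, with 40.7, 49.7 and 43.2 in wt-GR and 77.3, 86.2 and 95.3 in S134A-GR cells under vehicle. It was higher in S134A-GR cells by 0.94 (SE 0.166, adjusted p = 0.000274), without overlap between the groups. Under TGFβ1, at 112, 98.1 and 96.8 with wt-GR against 139, 120.5 and 111 with S134A-GR, the lines overlapped and the log2 fold change was 0.26 (SE 0.166, adjusted p = 0.213).

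The collagenase MMP1 and the stromelysin MMP3 lie close together on chromosome 11 (hg38, chr11:102789401-102798160 and chr11:102835801-102843609, both on the minus strand). MMP1 cleaves fibrillar collagens, and MMP3 cleaves proteoglycans and other matrix proteins and activates other proMMPs. MMP1 was at 601, 654 and 652 in wt-GR cells and 201, 220 and 164 in S134A-GR cells under vehicle. MMP3 was at 68.4, 64.5 and 94.8 with wt-GR against 119.7, 116 and 118 with S134A-GR. These neighbours thus differed in opposite directions, MMP1 by −1.71 (SE 0.11, adjusted p = 1.9e-08) and MMP3 by 0.65 (SE 0.166, adjusted p = 0.00465). Under TGFβ1 the values were 696, 679.6 and 610.1 in wt-GR and 229, 244 and 215 in S134A-GR cells for MMP1, and 81.1, 91.5 and 76.4 with wt-GR against 135, 152 and 144 with S134A-GR for MMP3. The log2 fold changes there were −1.52 (SE 0.11, adjusted p = 6.36e-08) and 0.79 (SE 0.166, adjusted p = 0.00123).

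MMP1 and MMP3 belong to a cluster of 7 measured MMP genes on chromosome 11, in the order MMP7, MMP20, MMP8, MMP10, MMP1, MMP3 and MMP13. The other 5 of these had means under 20. Within 1 Mb of the cluster, 8 other genes had a mean of at least 20, in the order CEP126, YAP1, BIRC3, BIRC2 and TMEM123 on the side of MMP7 and DCUN1D5, DYNC2H1 and PDGFD on the side of MMP13. Their log2 fold changes of S134A-GR over wt-GR under vehicle were −0.68, −0.76, −1.40, −0.89 and −0.98 on the first side and −0.78, −0.42 and −1.30 on the second. All 8 were called lower by limma under vehicle, DYNC2H1 near the threshold (adjusted p = 0.0439), against 31.8% of the 14425 genes. Under TGFβ1 7 were, against 30.7%, and DYNC2H1 had −0.14 with an adjusted p of 0.515. MMP3 was the only gene of the stretch with a positive value in either treatment. No copy number was measured here, and the part of this stretch's shared direction in the MMP1 difference was not tested. ADAMTS15 also lies on chromosome 11, at chr11:130448645-130476645.

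**Figure D3:**
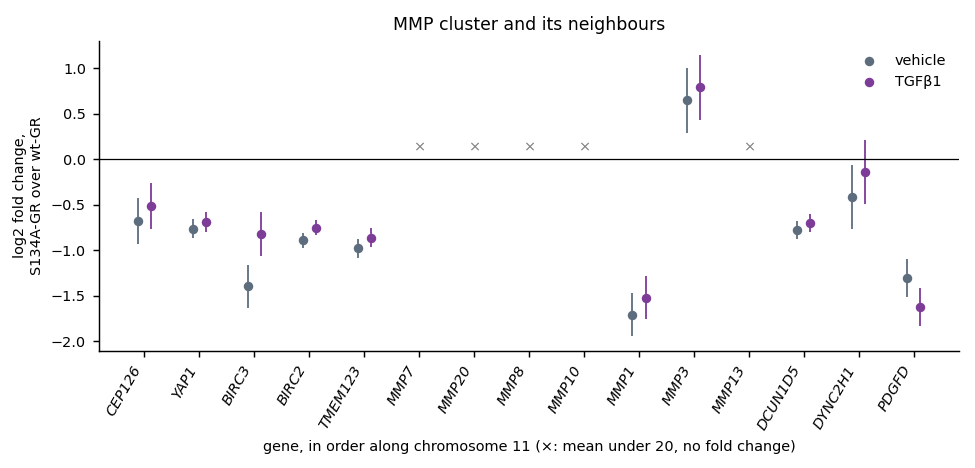
Log2 fold change of S134A-GR over wt-GR (limma, bars are 95% confidence intervals, n = 3 per group) for the MMP cluster and the genes within 1 Mb of it, in order along chromosome 11, under vehicle and TGFβ1. Genes marked × had a mean under 20 and carry no fold change, and MMP3 alone of those drawn lies above 0.

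The membrane-type MMPs are anchored to the cell surface and cleave matrix there. Under vehicle 5 of the 6 were higher in S134A-GR cells and none was called lower, where 30.0% of all 14425 genes were higher and 31.8% lower, and their median log2 fold change was 0.72. MMP14 was at 99633, 102390 and 99891 in wt-GR cells and 147880, 151840 and 145176 in S134A-GR cells under vehicle. MMP15 was at 815, 962 and 866 with wt-GR against 1868, 1944 and 1939 with S134A-GR, and MMP16 at 986, 897 and 779 with wt-GR against 1708, 1628 and 1579 with S134A-GR. In none of these did the lines overlap. The log2 fold changes were 0.56 (SE 0.0325, adjusted p = 6.84e-09) for MMP14, 1.12 (SE 0.0725, adjusted p = 1.87e-08) for MMP15 and 0.89 (SE 0.0964, adjusted p = 3e-06) for MMP16. MMP25, which is held by a lipid anchor, was at 53.8, 44.4 and 54.8 in wt-GR and 294, 220 and 237 in S134A-GR cells under vehicle, and at 80, 46.1 and 58 with wt-GR against 144, 273 and 298 with S134A-GR under TGFβ1. S134A-GR TGFβ1 replicate 1 was the lowest of that line and still above all wt-GR libraries. At 2.27 (SE 0.263, adjusted p = 5.61e-06) MMP25 had the largest increase of the 38 genes under vehicle. The antisense gene MMP25-AS1 shares 30.6% of the exon bases of MMP25, and since no source used here states a strand setting for the counting, the reads of the pair cannot be told apart.

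MMP25-AS1 itself was at 127, 128 and 132 in wt-GR and 327, 232 and 278 in S134A-GR cells under vehicle, in the same direction. MMP9 shares 18.4% of its exon bases with SLC12A5-AS1, MMP24 22.1% with MMP24OS and an unnamed gene, and MMP19 17.6% with TMEM198B, in each case on the opposite strand, and these genes carry the same limit. MMP17 did not pass the test in either treatment, with log2 fold changes of 0.08 (95% confidence interval −0.15 to 0.31) under vehicle and 0.09 (−0.13 to 0.32) under TGFβ1. Under TGFβ1, 4 of the 6 membrane-type genes were higher in S134A-GR cells, against 28.0% of all genes. The values were 125148, 120556 and 122219 in wt-GR and 157382, 159004 and 152670 in S134A-GR cells for MMP14, a log2 fold change of 0.35 (SE 0.0325, adjusted p = 7.23e-07). MMP15 was at 931, 802 and 844 with wt-GR against 1629, 1745 and 1572 with S134A-GR, and MMP16 at 649, 694 and 695 with wt-GR against 1591, 1272 and 1252 with S134A-GR. MMP15 and MMP16 thus differed between the lines under TGFβ1 too, with log2 fold changes of 0.94 and 1.01, and MMP25 with 1.91. MMP19, a soluble MMP outside these groups, was higher by 0.44 on the log2 scale under vehicle and 0.45 under TGFβ1. The overlapping TMEM198B was higher as well, at 463, 501 and 491 with wt-GR against 1231, 905 and 1141 with S134A-GR under vehicle.

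Of the 8 ADAMs with the zinc-binding motif, 6 were lower in S134A-GR cells under vehicle and 2 higher, against 31.8% and 30.0% of all 14425 genes. ADAM17, the sheddase that releases TNF and EGFR ligands, was lower by a factor of 2.07 under vehicle. Its normalized counts were 8769, 8824 and 8027 in wt-GR cells and 4049, 4211 and 4100 in S134A-GR cells under vehicle, and 8409, 8747 and 8316 with wt-GR against 4565, 4201 and 4111 with S134A-GR under TGFβ1. Each S134A-GR library was below each wt-GR library, with a log2 fold change of −1.05 (SE 0.0474, adjusted p = 6.23e-10) under vehicle and −0.99 (SE 0.0474, adjusted p = 1.21e-09) under TGFβ1. Exons on the opposite strand, mostly of IAH1, cover 11.7% of its exon bases. ADAM10, the main sheddase of Notch receptors, was at 24089, 22984 and 21956 with wt-GR against 17615, 18895 and 18659 with S134A-GR under vehicle and 23618, 24733 and 22641 with wt-GR against 21137, 19677 and 18609 with S134A-GR under TGFβ1. It was lower as well, with log2 fold changes of −0.32 (SE 0.0509, adjusted p = 9.85e-05) under vehicle and −0.26 (SE 0.0509, adjusted p = 0.000742) under TGFβ1. ADAM9 (−0.31), ADAM8 (−0.39), ADAM19 (−0.25) and ADAM21 (−0.80) were the others called lower under vehicle on the log2 scale. ADAM15 (0.60) and ADAM12 (0.62) were higher.

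ADAM11 and ADAM22 lack the motif, and are known as ligand-binding proteins of the nervous system. ADAM11 was higher in S134A-GR cells by 0.69 (SE 0.172, adjusted p = 0.00383) under vehicle. Its call under TGFβ1 (log2 fold change 0.50, adjusted p = 0.0259) was lost in 4 of the 12 fits that left out a library, those without TGFβ1 replicate 2 or 3 of either line, with adjusted p of 0.0785 to 0.107. ADAM22 had log2 fold changes of −0.17 (−0.39 to 0.05) under vehicle and −0.19 (−0.41 to 0.04) under TGFβ1, where the call appeared without wt-GR TGFβ1 replicate 3 (adjusted p = 0.0324). That library also decided ADAMTS20 (0.71, adjusted p = 0.115, called without it at 0.035), and wt-GR TGFβ1 replicate 2 decided ADAMTS9 (0.21, adjusted p = 0.084, called without it at 0.0291). ADAM21 has an annotated pseudogene copy, ADAM21P1, and ADAMTS7 has ADAMTS7P1, so the counts of ADAM21 and ADAMTS7 are uncertain.

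The ADAMTS genes differed in both directions. ADAMTS15, of the group that cleaves versican and aggrecan, was at 6249, 5629 and 5222 in wt-GR cells and 1722, 1636 and 1912 in S134A-GR cells under vehicle. Under TGFβ1 it was at 3397, 3331 and 3419 with wt-GR against 971, 920.3 and 894 with S134A-GR. The 4 groups did not overlap, and the log2 fold change between the lines was −1.70 (SE 0.0678, adjusted p = 1.95e-10) under vehicle and −1.86 (SE 0.0678, adjusted p = 8.95e-11) under TGFβ1. In the same group, ADAMTS1 was lower, with a log2 fold change of −0.44 (SE 0.0793, adjusted p = 0.000324) under vehicle, and ADAMTS9 (0.01, 95% confidence interval −0.20 to 0.21) and ADAMTS20 (0.12, −0.65 to 0.88) were not called. ADAMTS13, the von Willebrand factor-cleaving protease, was at 78.2, 136 and 108 in wt-GR and 426, 406 and 436 in S134A-GR cells under vehicle, and at 82.2, 71 and 76.4 with wt-GR against 236, 319 and 336 with S134A-GR under TGFβ1. It was 3.99-fold higher in S134A-GR cells under vehicle, a log2 fold change of 2.00 (SE 0.185, adjusted p = 6.61e-07), and 1.93 under TGFβ1 (SE 0.185, adjusted p = 1.04e-06). ADAMTS6 was at 1784, 1906 and 1934 with wt-GR against 3659, 3405 and 4015 with S134A-GR under vehicle and at 2951, 2949 and 3319 with wt-GR against 5744, 6272 and 6922 with S134A-GR under TGFβ1. It was higher by 0.98 (SE 0.0742, adjusted p = 9.7e-08) under vehicle and 1.04 (SE 0.0742, adjusted p = 5.75e-08) under TGFβ1.

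Among the other ADAMTS genes, ADAMTS7 (0.84), ADAMTS16 (0.73) and ADAMTS18 (0.60) were higher under vehicle on the log2 scale and ADAMTS12 (−0.52) was lower. The ADAMTS18 call under vehicle was lost without wt-GR vehicle replicate 1 (adjusted p = 0.0613), wt-GR vehicle replicate 3 (0.056) or S134A-GR vehicle replicate 3 (0.0974). The call of ADAMTS1 under TGFβ1 (−0.25) was lost without wt-GR TGFβ1 replicate 3 (adjusted p = 0.0507), S134A-GR TGFβ1 replicate 1 (0.0599) or S134A-GR TGFβ1 replicate 2 (0.0957). ADAMTS17 (0.22, 0.03 to 0.41) missed the threshold under vehicle with an adjusted p of 0.0513, and passed it with a pseudocount of 0.5 (0.0497), with only genes with a mean of at least 20 in the fit (0.0366), with a replicate block (0.0463) and without wt-GR vehicle replicate 1 (0.0198). The procollagen N-proteinases ADAMTS3 (0.14, −0.39 to 0.67) and ADAMTS14 (0.30, −0.12 to 0.73) were not called under vehicle, and ADAMTS14 was called without wt-GR vehicle replicate 3 (adjusted p = 0.0479).

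**Figure D4:**
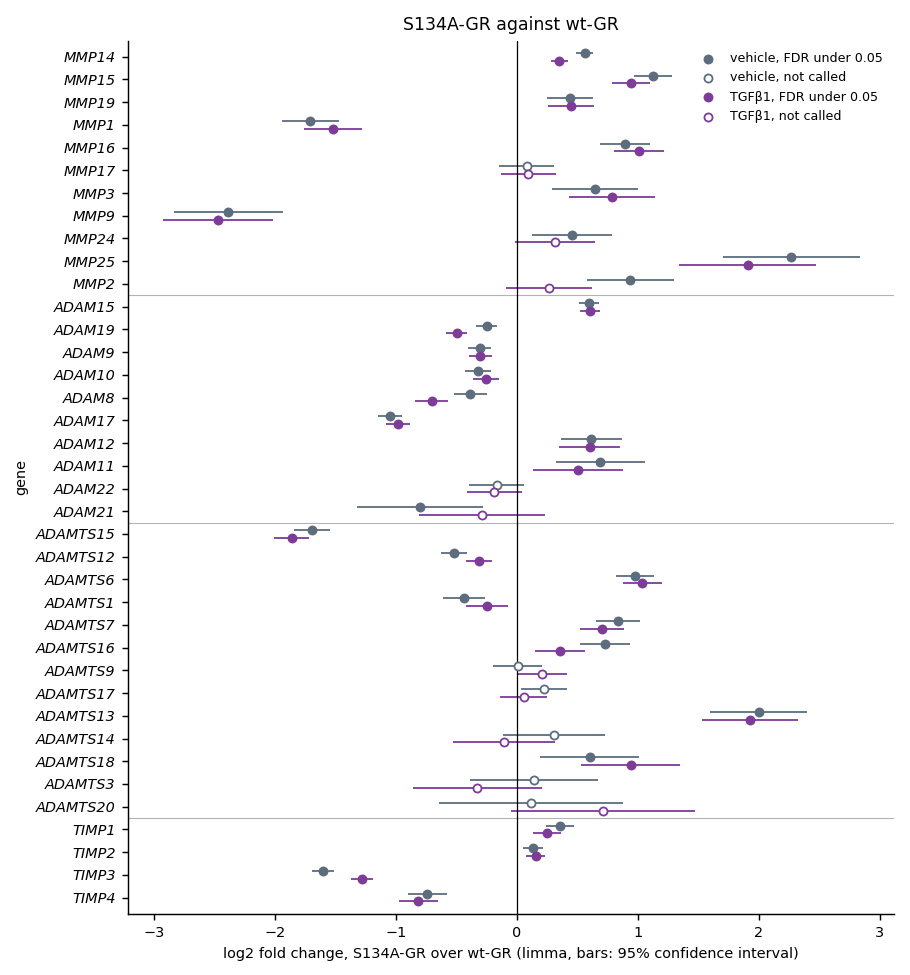
Log2 fold change of S134A-GR over wt-GR for the 38 genes under vehicle and under TGFβ1 (limma, bars are 95% confidence intervals, 3 libraries per group), where filled points had an FDR under 0.05. The values run from −2.47 for MMP9 under TGFβ1 to 2.27 for MMP25 under vehicle.

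The second question was how 6 h of TGFβ1 changed the family in each line. In wt-GR cells ADAM19 rose the most, then MMP2, ADAMTS6, ADAMTS7, TIMP1 and MMP14, and TIMP3, ADAMTS18, ADAMTS15, MMP16, ADAMTS17 and ADAMTS12 fell. Thus 6 of the 38 genes rose and 6 fell, against 14.0% and 12.1% of the 14425 genes with a mean of at least 20. Changes of at least 1 on the log2 scale were called for 2 of the 38, against 1.93%. In S134A-GR cells 5 rose (ADAM19, ADAMTS6, MMP2, ADAMTS7 and TIMP1) and 5 fell (ADAMTS15, ADAMTS14, TIMP3, ADAMTS17 and ADAM8), against 12.7% and 10.8%, with 1 of the 38 past a log2 fold change of 1, against 1.55%. The median log2 fold change of the 38 genes was −0.05 in wt-GR and −0.05 in S134A-GR cells. The genes called in both lines numbered 8 of the 38, against 16.1% of the 14425. DESeq2's Wald test on the recovered reads called 16 of the 38 in wt-GR and 15 in S134A-GR cells, against 29.1% and 27.7% of the 14425.

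**Figure D5:**
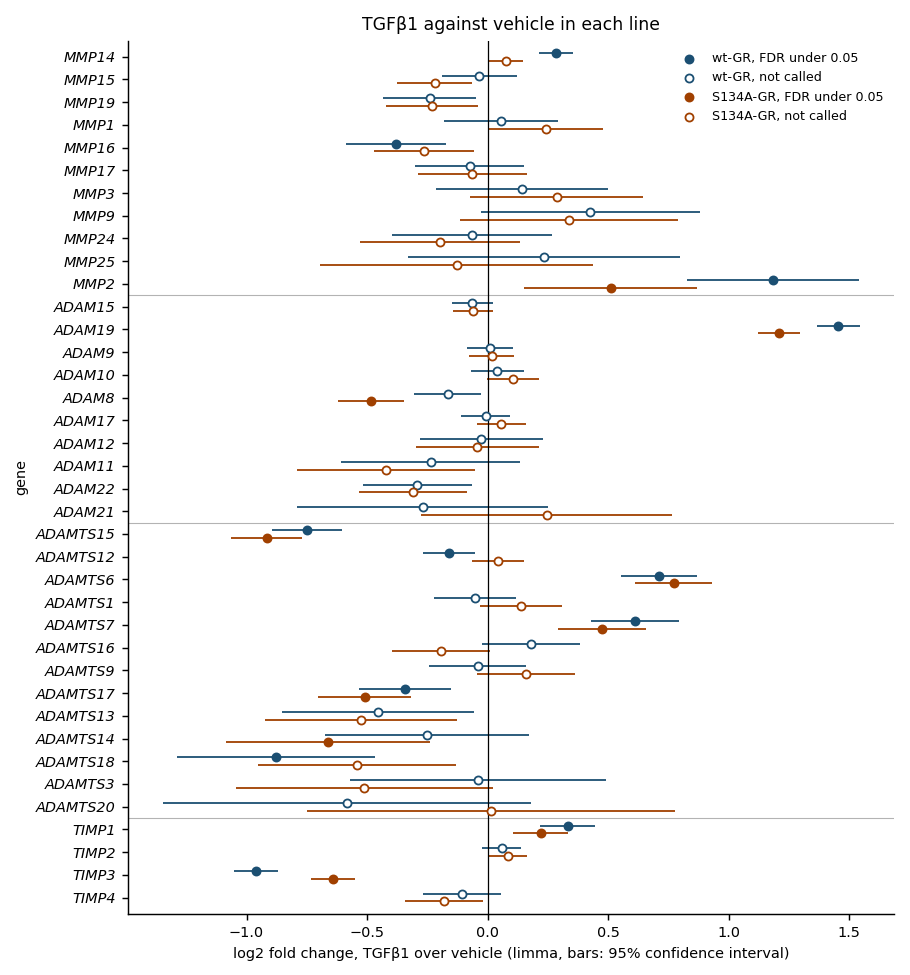
Log2 fold change of TGFβ1 over vehicle for the 38 genes in wt-GR and S134A-GR cells (limma, bars are 95% confidence intervals, 3 libraries per group), where filled points had an FDR under 0.05. ADAM19 lies at 1.46 and 1.21, and TIMP3 at −0.96 and −0.64.

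The 8 genes that TGFβ1 changed in both lines moved in the same direction in both. So did 2312 of the 2319 genes called in both lines among the 14425. The sequence before the start sites of the 8 family genes is shown. RefSeq promoters (build GRCh38.p14) matched 34 of the 56 genes by symbol and 6 of these 8, not MMP2 or ADAMTS15. For each of the 6, the 120 bases before the RefSeq start are printed 5′ to 3′, with the SMAD motif CAGAC, read on either strand, in capitals. They lie at chr5:157575776-157575895 on the minus strand for ADAM19, chr5:65481921-65482040 on the minus strand for ADAMTS6, chr15:78811465-78811584 on the minus strand for ADAMTS7, chrX:47582316-47582435 on the plus strand for TIMP1, chr22:32801585-32801704 on the plus strand for TIMP3 and chr15:100341976-100342095 on the minus strand for ADAMTS17. The first 4 rose and the last 2 fell.
ADAM19: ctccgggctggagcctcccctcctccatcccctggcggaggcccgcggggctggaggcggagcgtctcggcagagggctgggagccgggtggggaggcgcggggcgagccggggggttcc
ADAMTS6: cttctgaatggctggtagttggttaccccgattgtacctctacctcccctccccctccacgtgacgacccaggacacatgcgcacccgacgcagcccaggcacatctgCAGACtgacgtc
ADAMTS7: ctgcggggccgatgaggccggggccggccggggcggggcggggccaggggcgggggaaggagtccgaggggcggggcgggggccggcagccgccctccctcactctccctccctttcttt
TIMP1: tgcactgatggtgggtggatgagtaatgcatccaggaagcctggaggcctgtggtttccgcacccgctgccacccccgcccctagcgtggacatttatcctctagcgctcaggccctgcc
TIMP3: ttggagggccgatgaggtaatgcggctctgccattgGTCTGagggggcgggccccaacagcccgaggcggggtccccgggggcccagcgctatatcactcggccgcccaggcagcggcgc
ADAMTS17: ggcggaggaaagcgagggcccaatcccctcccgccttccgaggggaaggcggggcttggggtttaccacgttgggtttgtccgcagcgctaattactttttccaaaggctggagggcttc

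In the 250 bases before the start, CAGAC stood once in ADAMTS6, from 12 bases upstream, and once in TIMP3, from 84 bases upstream, and was not found in the other 4. Over both strands, 37.0% of the 13386 promoters of measured genes held it, and 10 of the 23 family promoters with a mean of at least 20. The AP-1 motif TGANTCA was in 4.9% of promoters and in 1 of the 23 (ADAMTS12), and AGAACA, an arm of the GR response element, in 8.5% and in 1 of the 23 (MMP24). The ETS motif AGGAAG was in 28.6% and in 6 of the 23, TIMP1 among them at 87 bases upstream. No CAGAC in these 23 promoters overlapped another of the motifs. A match describes the letters of this window and is not a measured binding site.

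ADAM19, a sheddase known to process neuregulin, had the largest response of the 38 genes in both lines. Its normalized counts in wt-GR cells were 12115, 11943 and 11766 under vehicle and 33398, 33147 and 31762 under TGFβ1. In S134A-GR cells they were 9928, 9751 and 10402 under vehicle against 24152, 23627 and 21815 under TGFβ1. All TGFβ1 libraries lay above all vehicle libraries, and the rise was 2.74-fold in wt-GR cells, 1.46 (SE 0.0408, adjusted p = 1.43e-11) on the log2 scale, and 2.31-fold in S134A-GR cells, 1.21 (SE 0.0408, adjusted p = 8.98e-11). Between the lines, ADAM19 was lower in S134A-GR cells, with log2 fold changes of −0.25 (SE 0.0408, adjusted p = 0.000123) under vehicle and −0.50 (SE 0.0408, adjusted p = 2.04e-07) under TGFβ1. Of the other ADAMs, ADAM8 fell in S134A-GR cells, with a log2 fold change of −0.48 (SE 0.0644, adjusted p = 9.56e-05), and was at −0.16 (adjusted p = 0.0891) in wt-GR cells, where 3 of the 21 alternative fits called it, those by DESeq2 (0.0469), without wt-GR vehicle replicate 1 (0.0195) and without S134A-GR TGFβ1 replicate 2 (0.0462). ADAM22 just missed the threshold in both lines, with log2 changes of −0.29 (adjusted p = 0.0646) in wt-GR and −0.31 (0.0557) in S134A-GR cells. It was called in 3 of the 21 alternative fits with wt-GR, by DESeq2 and without wt-GR vehicle replicate 3 or wt-GR TGFβ1 replicate 2 (0.0435 to 0.0461), and in 6 with S134A-GR, DESeq2's among them (0.0273 to 0.0496). ADAM10 and ADAM17 were not called in either line. Their log2 changes were 0.04 (−0.07 to 0.15) and −0.01 (−0.11 to 0.09) in wt-GR cells and 0.11 (−0.00 to 0.22) and 0.06 (−0.04 to 0.16) in S134A-GR cells.

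Among the MMPs, MMP2 rose 2.27-fold in wt-GR cells, 1.18 (SE 0.166, adjusted p = 0.000134) on the log2 scale, without overlap between the groups. In S134A-GR cells, whose vehicle libraries were already higher, it rose by 0.51 (SE 0.166, adjusted p = 0.0467). That second call was lost in 13 of the 21 alternative fits, 10 of them fits that left out a library (each but wt-GR vehicle replicates 1 and 2), with adjusted p of 0.0513 to 0.162. MMP14 rose in wt-GR cells by 0.29 (SE 0.0325, adjusted p = 1.82e-05). In S134A-GR cells its log2 change was 0.08 (0.01 to 0.15), not called by limma (adjusted p = 0.127). MMP16 fell in wt-GR cells, with a log2 fold change of −0.38 (SE 0.0964, adjusted p = 0.0118), a call lost without wt-GR vehicle replicate 1 (adjusted p = 0.0518) or wt-GR TGFβ1 replicate 1 (0.0512). MMP15 in S134A-GR cells, at −0.22, lay at the threshold (adjusted p = 0.0503) and was called in 9 of the 21 alternative fits (adjusted p of 0.0159 to 0.0479), those without wt-GR vehicle replicates 1 or 2, wt-GR TGFβ1 replicates 1 or 2 or S134A-GR TGFβ1 replicate 2 and those by edgeR and DESeq2 among them. MMP16 in S134A-GR cells, at −0.26 (adjusted p = 0.0741), was called by DESeq2 (0.0377), without wt-GR vehicle replicates 1 (0.0491) or 3 (0.0407) and without S134A-GR TGFβ1 replicate 1 (0.00911). MMP1, MMP3, MMP9 and MMP25 were not called in either line. In wt-GR cells their log2 changes were 0.06 (−0.18 to 0.29) for MMP1, 0.14 (−0.21 to 0.50) for MMP3, 0.43 (−0.03 to 0.88) for MMP9 and 0.23 (−0.33 to 0.80) for MMP25. In S134A-GR cells they were, in the same order, 0.24 (0.01 to 0.48), 0.29 (−0.07 to 0.64), 0.34 (−0.11 to 0.79) and −0.13 (−0.69 to 0.44). MMP9 was called in wt-GR cells when only the groups compared were fitted (adjusted p = 0.0497).

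Under TGFβ1, TIMP3 and TIMP1 changed in opposite directions. These comparisons use the same 12 libraries as those between the lines, so the values stand side by side. TIMP3 fell, with log2 fold changes of −0.96 (SE 0.0423, adjusted p = 1.04e-09) in wt-GR cells and −0.64 (SE 0.0423, adjusted p = 9.58e-08) in S134A-GR cells. TIMP1 rose by 0.33 (SE 0.0536, adjusted p = 0.000452) and by 0.22 (SE 0.0536, adjusted p = 0.0101), and the call in S134A-GR cells was lost without S134A-GR vehicle replicate 3 (adjusted p = 0.0507). TIMP2 was at 0.06 (−0.02 to 0.14) and 0.08 (0.00 to 0.16), and was called in S134A-GR cells without S134A-GR TGFβ1 replicate 3 (adjusted p = 0.0421). TIMP4 was at −0.11 (−0.27 to 0.06) and −0.18 (−0.34 to −0.02), and was not called in either line.

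Among the ADAMTS genes, ADAMTS6 rose by 0.71 (SE 0.0742, adjusted p = 7.87e-06) in wt-GR cells and by 0.77 (SE 0.0742, adjusted p = 4.06e-06) in S134A-GR cells. ADAMTS7 rose by 0.61 and 0.48 on the log2 scale. ADAMTS15 fell, with log2 fold changes of −0.75 (SE 0.0678, adjusted p = 1.89e-06) and −0.92 (SE 0.0678, adjusted p = 3.05e-07), without overlap in either line. ADAMTS17 fell, with log2 fold changes of −0.34 and −0.51, and the call in wt-GR cells was lost without wt-GR vehicle replicate 1 (adjusted p = 0.0646), without wt-GR TGFβ1 replicate 2 (0.0528) and with only the groups compared (0.0586). ADAMTS18 fell in wt-GR cells, with a log2 fold change of −0.88 (SE 0.191, adjusted p = 0.00446), and in S134A-GR cells it was at −0.54 (adjusted p = 0.0662), where 3 of the 21 alternative fits called it, edgeR (0.046) and DESeq2 (0.031) among them. The fall of ADAMTS12 in wt-GR cells, −0.16 (SE 0.0501, adjusted p = 0.0375), was lost in 8 of the 21 alternative fits, with adjusted p of 0.0501 to 0.155 there. These were the fits without any of wt-GR vehicle replicates 1 and 2, the 3 wt-GR TGFβ1 replicates and S134A-GR vehicle replicate 1, with a replicate block, and with only the groups compared. The fall of ADAMTS14 in S134A-GR cells, −0.66 (SE 0.197, adjusted p = 0.0304), was lost in 5 of the 12 fits that left out a library, those that left out an S134A-GR library other than TGFβ1 replicate 2, with adjusted p of 0.0576 to 0.0941. ADAMTS13 was at −0.45 (−0.85 to −0.06) and −0.52 (−0.92 to −0.13), not called by limma and called by DESeq2 in both lines (adjusted p = 0.0332 and 0.00952). Without wt-GR vehicle replicate 1 limma called it in both lines too (0.0129 and 0.0229), and in S134A-GR cells also without wt-GR vehicle replicate 2 (0.0415).

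Whether the lines responded differently to TGFβ1 was tested as the difference between the responses, S134A-GR minus wt-GR. TIMP3 alone of the 38 genes was called, with a log2 difference of 0.32 (SE 0.0599, adjusted p = 0.0332), so its fall was smaller in S134A-GR cells. Across the 14425 genes, 0.208% had a higher and 0.319% a lower response in S134A-GR cells at this FDR, and 0.0693% passed with a log2 difference of at least 1. The TIMP3 call was lost in 10 of the 12 fits that left out a library, with adjusted p up to 0.119, and with a replicate block (0.0528), and it stayed without wt-GR vehicle replicate 3 or S134A-GR TGFβ1 replicate 3. An unadjusted p under 0.05 was reached by 7 of the 38 genes, against 10.3% of the 14425. On the recovered reads edgeR called 1 of the 38, against 0.541%, and DESeq2's Wald test called 3, against 1.46%, adding MMP14 (adjusted p = 0.00181) and ADAM19 (0.0153). By limma their differences were −0.21 (SE 0.046, adjusted p = 0.0882) and −0.25 (SE 0.0577, adjusted p = 0.113). MMP2, whose rise was called in each line, had a difference of −0.67 (95% confidence interval −1.18 to −0.17). The other genes called in a single line were not called in the difference, with adjusted p of 0.822 for MMP16, 0.375 for ADAMTS12, 0.729 for ADAMTS18, 0.252 for ADAM8 and 0.678 for ADAMTS14.

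Genes that act with these proteases were read from fixed lists, over the genes with a mean of at least 20. The background for each list is the share of all 14425 genes. Of these, 30.0% were higher and 31.8% lower in the S134A-GR line under vehicle, and 28.0% and 30.7% under TGFβ1. TGFβ1 raised 14.0% and lowered 12.1% of them in wt-GR cells, and raised 12.7% and lowered 10.8% in S134A-GR cells. The first list holds proteases that activate proMMPs or proADAMs, such as furin, the plasminogen activators and cathepsins, and PLAUR, the urokinase receptor, which is not a protease. Of its genes, 3 of 10 had a higher level and 6 a lower level in the S134A-GR line under vehicle, and 2 a higher and 7 a lower level under TGFβ1. Within this list, TGFβ1 raised 5 and lowered none in wt-GR cells, and raised 3 and lowered 1 in S134A-GR cells. Of the rises in wt-GR cells, that of CTSL (0.17, adjusted p = 0.0161) was lost in 4 of the 21 alternative fits, those without wt-GR vehicle replicate 1 or 2 or wt-GR TGFβ1 replicate 1 and with only the groups compared (0.0619 to 0.085). That of CTSB (0.12, adjusted p = 0.0433) lay near the threshold, and its alternatives were not read. FURIN, which cleaves the propeptides of MMP14, ADAMs and ADAMTSs, was at 18187, 17984 and 17810 under vehicle against 42467, 40275 and 40002 under TGFβ1 with wt-GR, and at 15103, 15692 and 15454 against 30105, 29310 and 27860 with S134A-GR. The log2 rises were 1.18 (SE 0.0358, adjusted p = 2.61e-11) and 0.92 (SE 0.0358, adjusted p = 4.22e-10). PLAU, the urokinase activator of plasminogen, was at 65076, 67290 and 70865 under vehicle against 148975, 142955 and 150671 under TGFβ1 in wt-GR cells and 85103, 87259 and 87604 under vehicle against 126401, 135565 and 128007 under TGFβ1 in S134A-GR cells. It rose by 1.12 (SE 0.0397, adjusted p = 1.08e-10) and by 0.58 (SE 0.0397, adjusted p = 1.24e-07). CTSL, a lysosomal cysteine protease, was higher in S134A-GR cells by 1.18 on the log2 scale under vehicle and 1.04 under TGFβ1, and ST14, the membrane protease matriptase, was lower, with log2 fold changes of −0.87 and −1.02, each with an adjusted p under 0.05.

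For the lists in this paragraph too, the background is 30.0% of all 14425 genes higher and 31.8% lower in the S134A-GR line under vehicle. Under TGFβ1 it is 28.0% and 30.7%. TGFβ1 raised 14.0% and lowered 12.1% of all genes in wt-GR cells, and raised 12.7% and lowered 10.8% in S134A-GR cells. Of the other inhibitors and regulators, 4 of 10 had a higher level and 2 a lower level in the S134A-GR line under vehicle, and 2 a higher and 4 a lower level under TGFβ1. The higher calls of SPOCK2 (adjusted p = 0.0468) and THBS2 (0.0457) under vehicle lay near the limma threshold. TGFβ1 raised 4 and lowered none in wt-GR cells, and raised 3 and lowered 1 in S134A-GR cells. The THBS2 rise in wt-GR cells (adjusted p = 0.0442 by limma) also lay near the threshold. THBS1, a matricellular protein that binds proMMPs and activates latent TGFβ, rose by 1.08 (SE 0.065, adjusted p = 2.97e-08) in wt-GR and 1.05 (SE 0.065, adjusted p = 4.65e-08) in S134A-GR cells. Its lower call in S134A-GR cells under TGFβ1 (−0.18, adjusted p = 0.0338) was lost in 4 of the 12 fits that left out a library, those without a wt-GR TGFβ1 replicate or S134A-GR TGFβ1 replicate 2 (0.0577 to 0.149). Under vehicle it was not called (−0.15, adjusted p = 0.0656), and was called by edgeR (0.0469), by DESeq2 (0.0307) and without wt-GR vehicle replicate 3 (0.00319). RECK, a membrane-bound MMP inhibitor, was not called in any comparison. Its log2 fold changes between the lines were 0.11 (−0.04 to 0.26) under vehicle and −0.03 (−0.18 to 0.12) under TGFβ1. For TGFβ1 they were −0.01 (−0.16 to 0.14) in wt-GR cells and −0.15 (−0.31 to −0.003) in S134A-GR cells. The iRhom and tetraspanin partners carry ADAM17 and ADAM10 to the surface. Of these, 3 of 9 had a higher level and 4 a lower level in the S134A-GR line under vehicle, and 3 a higher and 4 a lower level under TGFβ1. For this list, TGFβ1 raised 3 and lowered 1 in wt-GR cells, and raised 4 and lowered 2 in S134A-GR cells. The test of the difference in response called FURIN (−0.27), PLAU (−0.54), FRMD8 (−0.41), which stabilises the iRhom complex, and TSPAN14 (0.24), with log2 differences of S134A-GR minus wt-GR in parentheses. The FURIN difference (adjusted p = 0.0351) was lost in 10 of the 12 fits that left out a library, each but wt-GR vehicle replicate 3 and S134A-GR TGFβ1 replicate 1, with adjusted p up to 0.126, and with a replicate block (0.0522). The TSPAN14 difference lay nearer the limma threshold (adjusted p = 0.0425) and that of FRMD8 further from it (0.0126). The alternatives were not read for these 2 genes.

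Relatives outside the symbol rule included the ADAMTS-like proteins, which lack the protease domain. For these relatives and the substrates below, the background is 30.0% of all 14425 genes higher and 31.8% lower in the S134A-GR line under vehicle. Under TGFβ1 it is 28.0% and 30.7%. TGFβ1 raised 14.0% and lowered 12.1% of all genes in wt-GR cells, and raised 12.7% and lowered 10.8% in S134A-GR cells. Of the relatives, 4 of 6 had a higher level and none a lower level in the S134A-GR line under vehicle, and 4 a higher and none a lower level under TGFβ1. TGFβ1 raised 1 and lowered 1 in wt-GR cells, and raised 1 and lowered 1 in S134A-GR cells. The gene lowered in both lines was ADAMTSL4. Its call in wt-GR cells (−0.24, adjusted p = 0.0301) was lost in 5 of the 12 fits that left out a library, those that left out a wt-GR library other than TGFβ1 replicate 1 (0.0612 to 0.113). Its call in S134A-GR cells (−0.27, adjusted p = 0.0166) was lost without S134A-GR vehicle replicate 3 (0.0619) and with only the groups compared (0.0967). ADAMTSL1 was at 4960, 4681 and 4532 in wt-GR and 10043, 9669 and 10298 in S134A-GR cells under vehicle, and ADAMTSL4 at 1287, 1265 and 1316 with wt-GR against 3589, 3670 and 3739 with S134A-GR. They were higher in S134A-GR cells by 1.08 (SE 0.0415, adjusted p = 1.31e-10) and 1.51 (SE 0.0726, adjusted p = 1.14e-09). Of the proteoglycan substrates, 1 of 3 had a higher level and none a lower level in the S134A-GR line under vehicle, and 2 a higher and none a lower level under TGFβ1. BCAN, or brevican, was higher by 1.33 (SE 0.107, adjusted p = 1.73e-07) under vehicle and 1.34 (SE 0.107, adjusted p = 1.63e-07) under TGFβ1. Among these substrates, TGFβ1 raised none and lowered 1 in wt-GR cells, and raised 1 and lowered 1 in S134A-GR cells. Of the proteins that ADAMs shed, 3 of 15 had a higher level and 5 a lower level in the S134A-GR line under vehicle, and 5 a higher and 5 a lower level under TGFβ1, and among them TGFβ1 raised 2 and lowered 3 in wt-GR cells, and raised 2 and lowered 3 in S134A-GR cells. TGFA, an EGFR ligand released by ADAM17, was at 3469, 3383 and 3453 in wt-GR and 1253, 1309 and 1385 in S134A-GR cells under vehicle. It was lower in S134A-GR cells, with a log2 fold change of −1.39 (SE 0.049, adjusted p = 6.5e-11). It fell under TGFβ1, with log2 fold changes of −0.60 (SE 0.049, adjusted p = 6.2e-07) in wt-GR and −0.37 (SE 0.049, adjusted p = 0.000101) in S134A-GR cells.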

How the data were processed

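RNA of the 12 libraries was read as 75-base pairs. Per the study's methods, the authors checked reads with FastQC 0.11.7, trimmed with Trimmomatic, used HISAT2 for alignment to hg38 and featureCounts for counts per gene. The deposited signal values are counts that the authors divided by DESeq2 1.22.2 size factors. The gene annotation and the strand setting are not stated. Reads were recovered from the step between values in each library, 100% of them whole within 0.01 reads, and totalled 56362036 to 129832227 per library. Whether a count is a pair or an end is not stated. How many symbols had 1 or 2 counts was read after the data were seen.

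Fits used limma 3.58.1 in R 4.3.3 on log2 of normalized count plus 1, with 4 group means, a trended empirical Bayes prior and Benjamini-Hochberg adjustment over 18579 genes with at least 10 reads in all. An FDR under 0.05 at any fold change was called. The alternatives were edgeR 4.0.16 and DESeq2 1.42.0 on recovered reads, pseudocounts of 0.5 and 5, TMM scaling, other filters, fewer groups, a replicate block and leaving out each library. Over all genes, limma called 9569, 9070, 3910, 3475 and 77 in the 5 comparisons, in the order reported, edgeR 9452, 9106, 3892, 3450 and 78, and DESeq2 9406, 9146, 4276, 4045 and 211. The steps were tested on simulated data.

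Values in each library are given for family genes with a mean of at least 20 that were called in a comparison with a log2 fold change of 1 or more in size, for those called in the difference of responses, for TIMPs, and for MMP1, MMP2, MMP3, MMP9, MMP14, ADAM10 and ADAM17. Genes of the partner lists are named when they pass the same FDR and fold change. RECK, FRMD8, TSPAN14, CTSB, SPOCK2, THBS2, the genes with means under 20 whose values are given and the neighbours of the chromosome 11 cluster were chosen after their values were seen. The genes and lists were chosen with earlier results of these data known.

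Exon lengths, positions and the ADAM and ADAMTS proteins searched for the zinc-binding motif came from GENCODE release 44, and promoters from RefSeq (GRCh38.p14).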

Additional observations from a re-analysis of the deposited data

Results flagged for a closer look

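A test of the difference in TGFβ1 response between the lines, S134A-GR minus wt-GR on the log2 scale by limma, called 6 of the genes read here. These were read among the 38 family genes, the partner lists and the markers. Of all 14425 genes, 0.208% had a higher and 0.319% a lower response in S134A-GR cells at an FDR under 0.05. PMEPA1, the TGFβ1-induced gene used to check the treatment, had a difference of −0.72 (SE 0.0756, adjusted p = 0.000909). PLAU, the urokinase plasminogen activator, had −0.54 (SE 0.0561, adjusted p = 0.000909). FRMD8, of the iRhom complex, had −0.41 (SE 0.0626, adjusted p = 0.0126). FURIN had −0.27 (SE 0.0506, adjusted p = 0.0351). TIMP3 had 0.32 (SE 0.0599, adjusted p = 0.0332) and TSPAN14, a tetraspanin partner of ADAM10, had 0.24 (SE 0.0458, adjusted p = 0.0425). PMEPA1, PLAU and FURIN rose in both lines, by less in S134A-GR cells. The TIMP3 and FURIN calls were each lost in 11 of 20 alternative fits, 10 of them fits that left out a library and the other the replicate block, with adjusted p up to 0.119 for TIMP3 and 0.126 for FURIN. The alternatives were not read for PMEPA1, FRMD8 and TSPAN14. No explanation for these differences was tested.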

How the results depend on the processing

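The counts of family genes called between the lines stayed within 30 to 32 under vehicle and at 28 under TGFβ1 in all 9 alternatives other than leaving out a library, and within 29 to 31 and 26 to 28 when each library was left out. For TGFβ1 in wt-GR cells the counts ran from 11 to 16, and 10 to 13 without a library, and in S134A-GR cells from 9 to 15 and 7 to 14. In the difference of responses, DESeq2's Wald test called 3, the replicate block 0, and the fits without a library 0 to 1, with 0 in 10 of the 12, where limma on all libraries called 1 and 7 had an unadjusted p under 0.05 (10.3% of all 14425 genes). The cause was not tested. Of 1872 values of the 18 genes given by library, 1809 kept their direction and their side of the threshold, 27 were no longer called, 22 became called, and 14 uncalled values near 0 moved past 0. None of the called values changed sign. All values of these 18 genes between the lines kept direction and call. Replicates of the same number in different groups had a mean correlation of 0.0144 (−0.0546 to 0.135, 18 pairs, across 14425 genes, which are not independent replicates) after group means were removed, against −0.00715 for the other pairs. The difference in response could not be fitted with only the groups compared, since it uses all 4. Genes with a mean near the limit of detection, with 3 reads in the shallowest library equal to 4.89 normalized counts, have no fold change here.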
